A study of Mus musculus with 37 samples.

Results

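The genes described here restrain growth signalling: Nf1, Rasa1, Spred1 and Spred2, which act on Ras, then Trp53, Nf2, Tsc1 and Tsc2. Nf1 and Trp53 are lost or mutated in gliomas, and inherited loss of Nf1, Nf2, Tsc1 or Tsc2 causes tumour syndromes of the nervous system. They were taken by name, with every probe set of the array annotated to them. Of the 8 genes, 7 had at least 1 probe set and together held 27 of the 45101 probe sets on the array. No probe set in the annotation used here names Trp53, so p53 itself is not analysed here. The array tests for these genes cover 21 of the 27 probe sets, those above the background level (the median of the whole table, 3.19 on the log2 scale) on at least 4 arrays.

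The study asked what Cdca7l, a Myc-interacting nuclear protein, does to gene expression in mouse primary astrocytes, and it carried both strain and sex as factors. Astrocytes came from newborn mice of 129S4/SvJae (129) or C57BL/6J (B6), were grown in medium with 20% serum, and received a pcDNA3.1-hygro plasmid that held CDCA7L or nothing by nucleofection, followed by stable transfection. RNA of 37 cultures was measured, with 1 array each. The 129 female groups held 4 Cdca7l and 4 vector arrays, the 129 male groups 5 and 5, the B6 female groups 4 and 5, and the B6 male groups 5 and 5. Every culture of every group was grown in serum and nucleofected, no untransfected culture is analysed here, and the labels name no engineered allele of any member. The labels do not give the species of the insert or its level as protein, and the pcDNA3.1 backbone drives an insert from a viral promoter in any cell that takes it up.

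Ras proteins pass growth factor signals to the RAF, MEK and ERK kinases while they hold GTP. Neurofibromin, made by Nf1, and p120 RasGAP, made by Rasa1, make Ras hydrolyse that GTP, and SPRED1 brings neurofibromin to the membrane where Ras sits. Merlin, made by Nf2, links the membrane to the actin cytoskeleton and feeds the Hippo pathway, and the TSC1 and TSC2 proteins hold down Rheb and so mTORC1, the kinase complex that drives protein synthesis.

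The cultures carried the RNA of astrocytes. All 10 astrocyte markers were on the array, and 8 exceeded the background level on every array, the exceptions including S100b, which exceeded it on 13. Cdca7l RNA lay at 10.15 to 14.42 (log2) on the 18 Cdca7l arrays and at 4.12 to 10.43 on the 19 vector arrays. On 1 array, B6 female vector 5.1(1), the values went against the label: Xist lay at 2.40, where the other 16 female arrays lay at 10.71 to 12.20, and Eif2s3y, a Y-linked gene, lay at 11.91, within the male range of 11.73 to 12.71. A second array, 129 female vector 1(3), stood apart in its distribution, with an upper quartile of 8.36 against 9.03 to 9.51 on the other 36. Both stayed in the fit, and member calls that change without them are given with their values.

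Nf2 and Rasa1, whose strongest probe sets differed between the strains, are shown first by the sequence just upstream of their start sites. Each is the 250 bases before the annotated start on the gene's strand, 5′ to 3′, from RefSeq on GRCm38.p6, with matches to the searched motifs in capitals. The windows lie at chr11:4849545-4849794 on the minus strand for Nf2 and at chr13:85289487-85289736 on the minus strand for Rasa1.
Nf2: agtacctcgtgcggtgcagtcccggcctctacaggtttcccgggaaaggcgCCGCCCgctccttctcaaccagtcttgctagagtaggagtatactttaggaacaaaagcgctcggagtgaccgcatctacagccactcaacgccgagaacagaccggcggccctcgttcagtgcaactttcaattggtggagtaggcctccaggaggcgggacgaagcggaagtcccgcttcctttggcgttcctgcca
Rasa1: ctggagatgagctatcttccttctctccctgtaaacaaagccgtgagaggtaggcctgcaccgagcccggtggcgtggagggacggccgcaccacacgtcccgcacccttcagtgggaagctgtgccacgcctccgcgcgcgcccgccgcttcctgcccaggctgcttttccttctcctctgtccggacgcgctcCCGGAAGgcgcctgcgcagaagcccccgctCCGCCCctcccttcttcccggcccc
The motifs searched on both strands were the ETS core CCGGAAG, the GC box GGGCGG and the E-box CACGTG, none of which contains another. The Nf2 window held 1 GC box and 20 CpG dinucleotides, and the Rasa1 window held 1 ETS match, 1 GC box and 24 CpG dinucleotides. Among the other members the ETS match also stood in the windows of Nf1 and Tsc2, and the GC box in those of Spred1 and Spred2. Of 32851 windows of the same length, 6.91% held the ETS match, 32.7% the GC box and 6.02% the E-box, which no member window held. The median window had 6 CpG dinucleotides, and the first windows of the 7 members had 12 to 31. Nf2 had a second window, at chr11:4833136-4833385, with 2 CpG dinucleotides and no match to a searched motif. These letters are those of the reference, which is C57BL/6J, and 129 sequence was not used here.

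**Figure D1:**
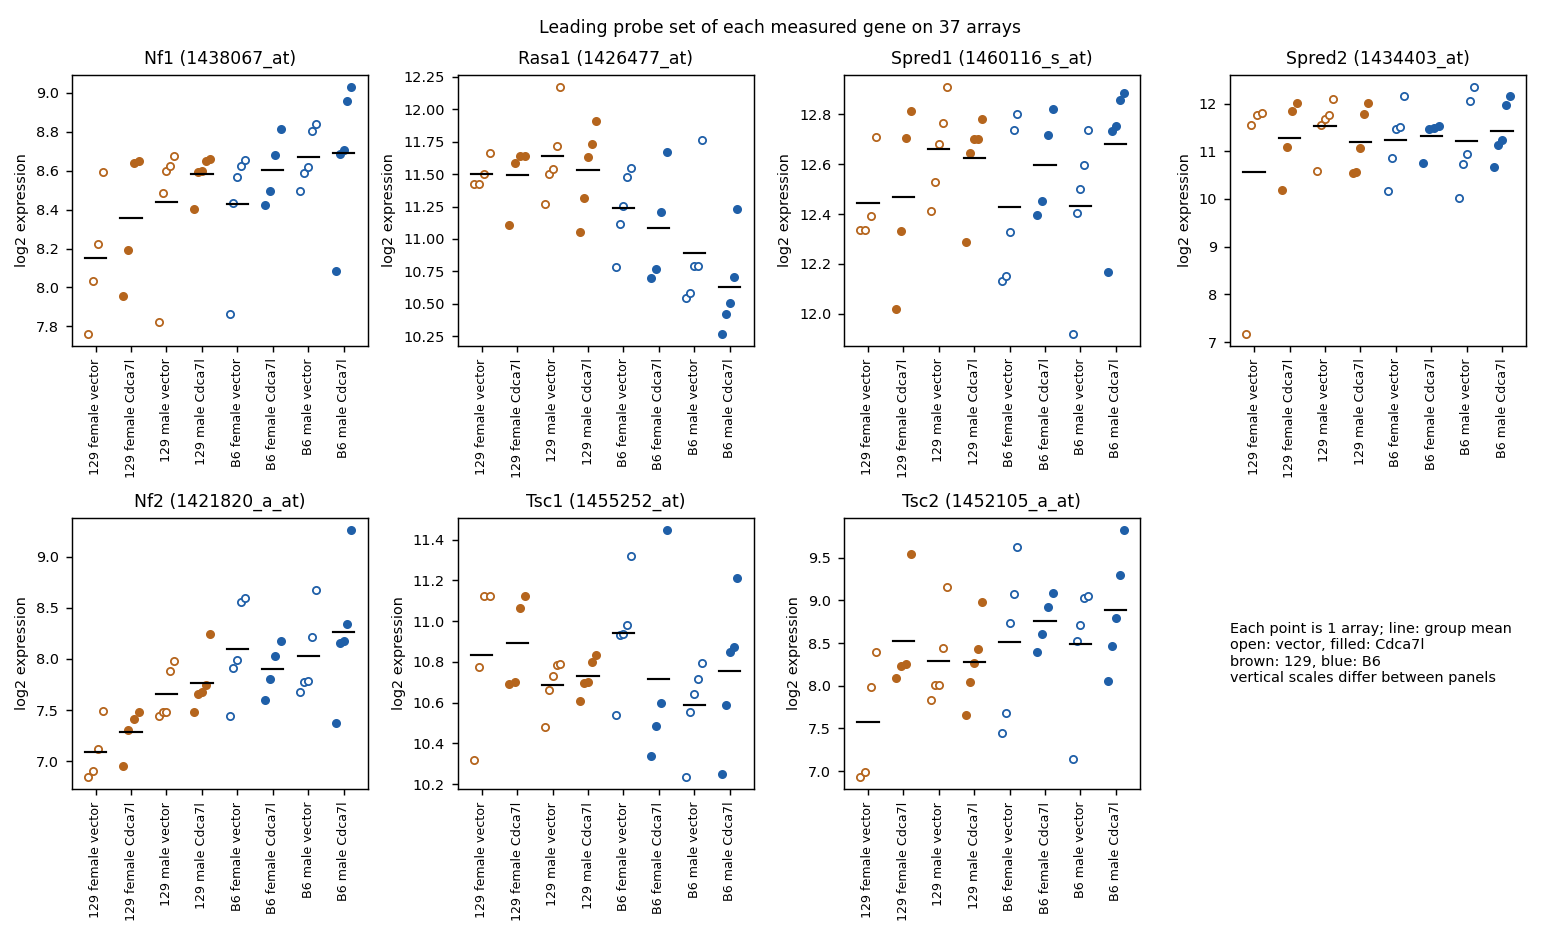
Log2 expression of the leading probe set (the one with the highest mean) of the 7 measured genes, on the vertical axes, in the 8 groups, with 1 point per array and a line at each group mean. Nf2 sits higher and Rasa1 lower on most B6 arrays, and Spred2 on 129 female vector 1(3) lies at 7.18, far below the other 3 arrays of its group.

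The members differed by strain more than by sex or by Cdca7l in how many passed. With the 4 groups of each strain averaged, 4 of the 21 tested probe sets passed at an adjusted p under 0.05, or 19.05%, 1 higher and 3 lower in B6. Of all 25579 tested probe sets 6456 passed, or 25.2%, with 14.6% higher and 10.6% lower. The members' share is thus not above that of the array. Their median size of difference was 0.22 on the log2 scale, against 0.30 over all tested probe sets. At an unadjusted p under 0.05 there were 9 of 21 members and 9864 of all.

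Among the brakes that act on Ras directly, Rasa1 was lower in B6. Its leading probe set, 1426477_at, ran from 11.05 to 12.17 with a median of 11.56 on the 18 arrays of 129, and from 10.27 to 11.76 with a median of 10.79 on the 19 arrays of B6. By group, the vector arrays read 11.42, 11.43, 11.50 and 11.67 in 129 females and 11.27, 11.50, 11.54, 11.72 and 12.17 in 129 males. In B6 they read 10.79, 11.12, 11.25, 11.48 and 11.55 in females and 10.55, 10.59, 10.79, 10.79 and 11.76 in males. The strains overlapped: 17 of the 19 B6 arrays lay below the 129 median, and 11 lay below every 129 array. The fitted difference, B6 minus 129, was −0.58 ± 0.121 (SE) on the log2 scale, or 1.49-fold, with an adjusted p of 0.000791.

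The other 2 Rasa1 probe sets differed by a like amount but missed the threshold. Probe set 1426476_at had a median of 11.40 in 129 and 10.52 in B6 and a fitted difference of −0.60 ± 0.229 (adjusted p = 0.0519), and 1426478_at had medians of 9.30 and 8.78 and a difference of −0.62 ± 0.270 (adjusted p = 0.0879). Both passed without the array 129 female vector 1(3), at −0.73 (adjusted p = 0.00959) and −0.78 (adjusted p = 0.0174). Of the 37 fits that left 1 array out, 1426476_at passed in 11 and 1426478_at in 2. Across the 37 arrays the 3 probe sets correlated with each other at r = 0.66 to 0.70, which is a description, since they measure the same RNA on the same arrays.

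Nf1 differed less. Its leading probe set, 1438067_at, ran from 7.76 to 8.68 with a median of 8.59 in 129 and from 7.86 to 9.03 with a median of 8.62 in B6. The strains overlapped over most of their range, though 8 of the 19 B6 arrays lay above every 129 array. The difference was 0.22 ± 0.101 (95% interval 0.01 to 0.42, adjusted p = 0.112). It passed in 1 of the 37 fits that left 1 array out, the one without B6 male Cdca7l 4(3) (adjusted p = 0.0476). The other 2 Nf1 probe sets, 1441523_at and 1452525_a_at, exceeded the background level on 0 of the 37 arrays and were not tested.

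Spred1 and Spred2 gave different answers from different probe sets. The leading Spred1 probe set, 1460116_s_at, had medians of 12.66 in 129 and 12.60 in B6 and differed by −0.01 ± 0.094, with a 95% interval of −0.21 to 0.18. Of the 8 tested Spred1 probe sets, 1 passed: 1445228_at ran from 3.04 to 8.40 with a median of 6.99 in 129 and from 2.28 to 6.18 with a median of 4.39 in B6. All 19 B6 arrays lay below the 129 median, and the ranges overlapped. The difference was −1.46 ± 0.380, or 2.76-fold, with an adjusted p of 0.00556. Of the other 6, 1423160_at came nearest, at −0.21 ± 0.092 (adjusted p = 0.0936), and it passed at −0.25 without 129 female vector 1(3) (adjusted p = 0.0329). The rest, 1423161_s_at, 1423162_s_at, 1428777_at, 1443652_x_at and 1452911_at, passed in 0 of the 37 fits that left 1 array out. Over the arrays, Spred1 probe sets correlated from r = −0.72 (1428777_at and 1443652_x_at) to 0.78 (1423161_s_at and 1423162_s_at).

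Spred2 showed the same split. Its leading probe set, 1434403_at, differed by 0.15 ± 0.320 (adjusted p = 0.755), and by −0.13 (adjusted p = 0.701) once 129 female vector 1(3) was left out. The dim probe set 1441415_at passed, at −1.09 ± 0.279 (adjusted p = 0.00495). It ran from 2.31 to 5.60 in 129 and from 2.23 to 3.93 in B6, and it exceeded the background level on 13 of 18 arrays of 129 and on 4 of 19 of B6. The last of these counts shows that most B6 values lie at background, and with all values below that level raised to it the difference was −0.78. Probe set 1441802_at differed by −0.77 ± 0.465 and 1436892_at by 0.50 ± 0.362, and neither passed (adjusted p = 0.226 and 0.314). The remaining Spred2 probe set, 1423001_at, exceeded the background level on 0 arrays.

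Nf2 was higher in B6. Its leading probe set, 1421820_a_at, ran from 6.85 to 8.24 with a median of 7.48 on the 129 arrays and from 7.38 to 9.26 with a median of 8.03 on the B6 arrays. On vector arrays it read 6.85, 6.90, 7.12 and 7.49 in 129 females and 7.44, 7.48, 7.48, 7.88 and 7.98 in 129 males. In B6 vector arrays it read 7.44, 7.92, 7.99, 8.55 and 8.59 in females and 7.67, 7.78, 7.78, 8.22 and 8.67 in males. The ranges overlapped, with 17 of 19 B6 arrays above the 129 median and 5 above every 129 array. The difference was 0.62 ± 0.134, or 1.54-fold, with an adjusted p of 0.00108.

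The second tested Nf2 probe set did not follow it. Probe set 1450382_at spread from 2.67 to 9.00 over the 37 arrays and differed between strains by 0.01 ± 0.560, an interval of −1.13 to 1.16. The 2 Nf2 probe sets correlated at r = −0.12 over the arrays. The other 2, 1427708_a_at and 1451829_a_at, exceeded the background level on 0 arrays.

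Neither mTORC1 brake passed in the fit of all arrays. The leading Tsc1 probe set, 1455252_at, had medians of 10.75 in 129 and 10.72 in B6 and differed by −0.04 ± 0.101, with a 95% interval of −0.24 to 0.17. The dim Tsc1 probe set 1439989_at exceeded the background level on 5 arrays and differed by 0.02 ± 0.239, and 1422043_at exceeded it on 1 array and was not tested. The single Tsc2 probe set, 1452105_a_at, ran from 6.93 to 9.54 with a median of 8.16 in 129 and from 7.14 to 9.82 with a median of 8.74 in B6. It differed by 0.49 ± 0.219 (95% interval 0.05 to 0.94, adjusted p = 0.0937), and 15 of 19 B6 arrays lay above the 129 median. It passed in 2 of the 37 fits that left 1 array out, those without 129 female Cdca7l 1(3) (adjusted p = 0.0419) and B6 male vector 3(5) (adjusted p = 0.0400).

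**Figure D2:**
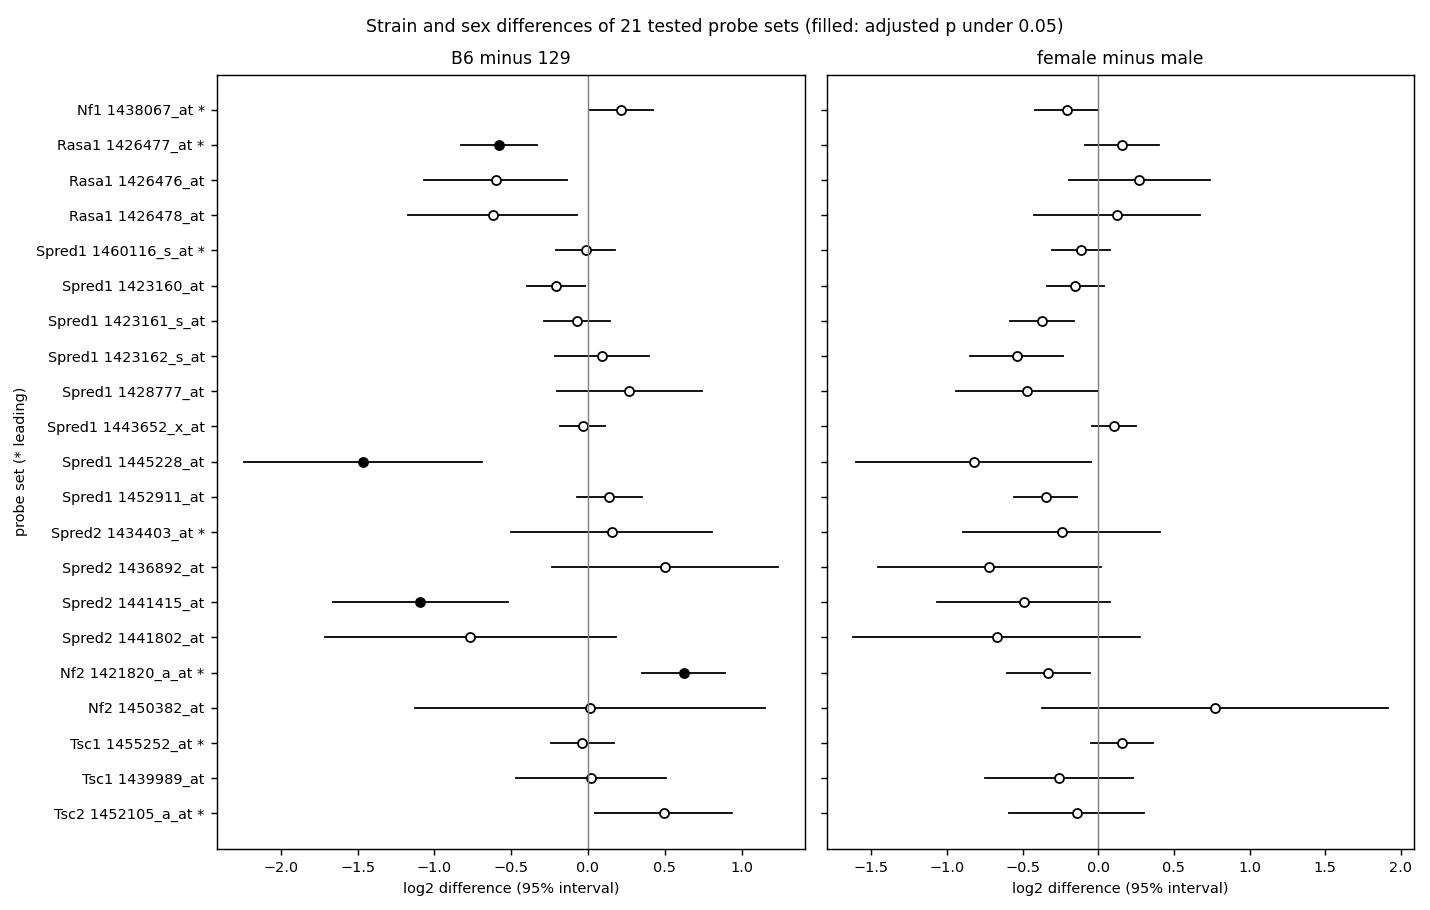
Fitted log2 differences with 95% intervals for the 21 tested probe sets, B6 minus 129 at left and female minus male at right, filled where the adjusted p was under 0.05. Of the strain differences 4 are filled, Nf2 1421820_a_at at 0.62 and Rasa1 1426477_at, Spred1 1445228_at and Spred2 1441415_at below 0, and of the sex differences 0.

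The cultures of the strains also differed in markers of other cells. Of 7 fibroblast and meningeal markers, all tested, 4 were lower in B6 (Col1a1, Col1a2, Col3a1 and Dcn). Col3a1 exceeded the background level on 15 of 18 arrays of 129 and 0 of 19 of B6, and Dcn on 7 and 1. Both thus entered the test through the 129 arrays. The mean log2 value of that list ran from 6.53 to 11.94 in 129 and from 5.30 to 7.13 in B6. Of 10 astrocyte markers, 4 were higher in B6 (Glul, Aqp4, Slc1a3 and Sox9), with a list mean of 9.05 to 12.64 in 129 and 11.09 to 12.86 in B6. Of 7 tested ependymal and choroid plexus markers 4 were higher in B6, with a list mean of 3.31 to 7.93 in 129 and 4.82 to 9.10 in B6, and of 8 tested markers of dividing cells 2 were lower, with a list mean of 4.99 to 11.41 in 129 and 4.97 to 8.88 in B6. None of 9 tested microglia markers passed. Of 13 on the array, Cd68 and Fcer1g exceeded the background level on all 37 arrays, Adgre1 on 23 and Laptm5 on 22, and Itgam and Cx3cr1 on none, with a list mean of 2.70 to 8.54 in 129 and 2.66 to 7.13 in B6. Of the remaining lists, neuron markers gave Map2 and Tubb3 higher and Syt1 lower in B6 out of 4 tested (list mean 4.89 to 6.40 in 129, 4.90 to 6.28 in B6). Oligodendrocyte lineage markers gave Cnp and Olig2 higher out of 5 (5.503 to 7.33 in 129, 5.80 to 7.07 in B6), and endothelial markers gave Flt1 lower out of 2 (2.19 to 4.08 in 129, 2.14 to 2.27 in B6). Flt1 exceeded the background level on 8 of 18 arrays of 129 and 0 of 19 of B6. The same counts held for Plk1, a dividing cell marker that was lower in B6. Both entered the test through the 129 arrays. The part of these cells in the differences of Nf2, Rasa1, Spred1 and Spred2 was not tested, and in cultures measured whole, fewer cells of a type and less RNA per cell cannot be told apart. Whether strain variants lie under the probes was not tested either, since probe sequences were not used here.

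The 4 strain calls were also read within the sexes and within the plasmids. Nf2 1421820_a_at differed by 0.81 in females alone (adjusted p = 0.0150) and by 0.44 in males alone (adjusted p = 0.155). Rasa1 1426477_at differed by −0.82 in males alone (adjusted p = 0.00570) and by −0.34 in females alone (adjusted p = 0.194), and the test of strain by sex, the strain difference in females minus that in males, did not pass for Nf2 (0.37 ± 0.267, adjusted p = 0.505) or Rasa1 (0.49 ± 0.241, adjusted p = 0.332). Spred2 1441415_at differed by −1.34 in males alone (adjusted p = 0.0255) and by −0.85 in females alone (adjusted p = 0.193), and Spred1 1445228_at is given by sex further on. On vector arrays alone Nf2 1421820_a_at was the only member of the 21 past the threshold (0.69, adjusted p = 0.0249). Of all 25579 probe sets 2222 passed there. On Cdca7l arrays alone 2 of 21 passed, Rasa1 1426477_at (−0.65, adjusted p = 0.0430) and Spred1 1445228_at (−1.97, adjusted p = 0.0229), and 1333 of all.

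**Figure D3:**
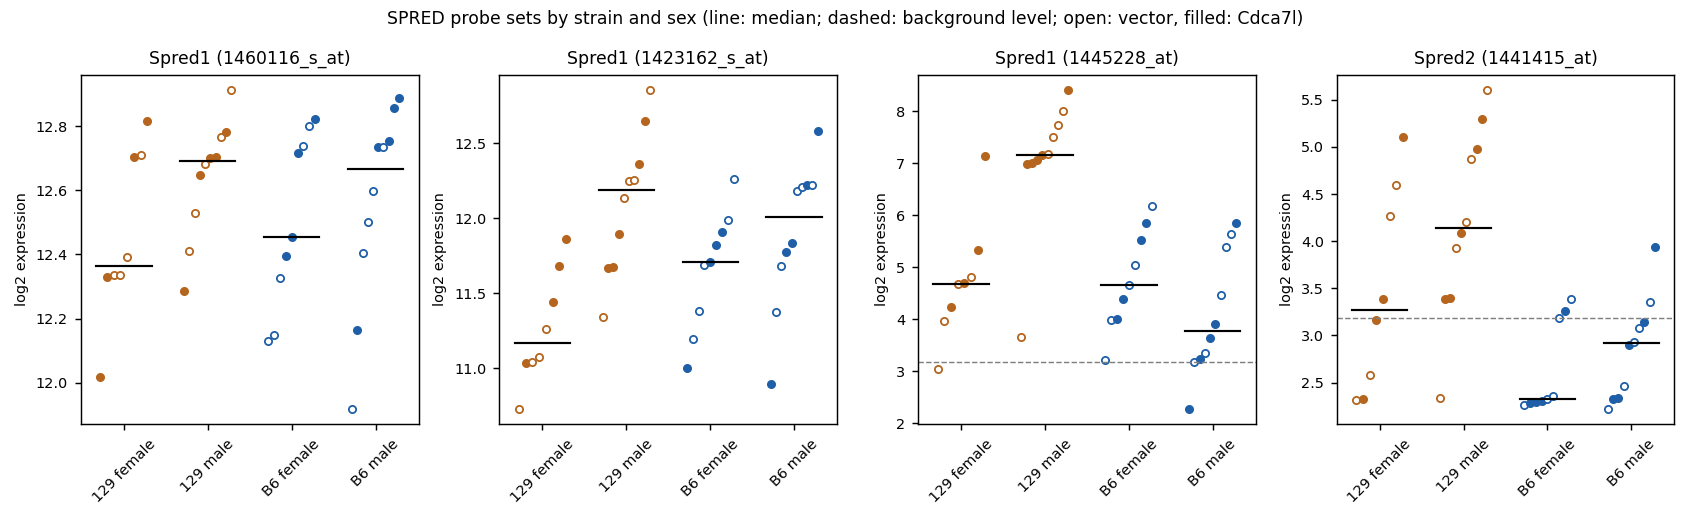
Log2 expression of 3 Spred1 probe sets and 1 Spred2 probe set, on the vertical axes, by strain and sex, with 1 point per array, a line at the median and a dashed line at the background level of 3.19. For Spred1 1445228_at, 9 of the 10 arrays of 129 males lie at 6.98 or above, while B6 males reach at most 5.85.

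Spred1 1445228_at was high on 9 of the 10 arrays of 129 males and on 1 of the 8 arrays of 129 females. The 129 male arrays read 6.98, 7.01, 7.06, 7.17 and 8.40 with Cdca7l and 3.66, 7.17, 7.51, 7.73 and 8.001 with vector. The 129 female arrays read 4.23, 4.69, 5.33 and 7.14 with Cdca7l and 3.04, 3.97, 4.68 and 4.82 with vector. B6 arrays had medians of 4.65 in females and 3.77 in males. The fibroblast and meningeal list had a mean of 9.56 in 129 males, 7.80 in 129 females, 6.62 in B6 females and 6.13 in B6 males. By mean, the microglia list ran in the same order (4.55, 4.03, 3.76 and 3.44). By median it was highest in 129 females, at 4.22 against 3.73 in 129 males. The endothelial and oligodendrocyte lineage lists also had their highest means in 129 males (2.87 and 6.63). By median the oligodendrocyte lineage list was highest in B6 females, at 6.58 against 6.49 in 129 males. The astrocyte, neuron, ependymal and dividing cell lists did not have their highest means in 129 males. For neuron markers the means of B6 females and 129 males were nearly equal (5.682 in both). The part of these cells was not tested. For Spred1 1445228_at, only the vector array 3(3) among the 129 males overlapped the B6 males. The strain difference was −2.97 in males alone (adjusted p = 0.00171) and 0.04 in females alone (adjusted p = 0.964). The test of the difference between those, strain by sex, gave 3.02 ± 0.760 with an unadjusted p of 0.000401 and an adjusted p of 0.118, and 0 of all 25579 probe sets passed it (0%). The call depends on single arrays: without 129 male vector 3(3) the adjusted p was 0.0230, and without 129 female Cdca7l 1(3) it was 0.0448.

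Between the sexes, 0 of the 21 member probe sets passed, where 82 of all 25579 did, or 0.321%. At an unadjusted p under 0.05 there were 7 of 21 members and 4626 of all. The members leaned toward lower values in females: 15 of 21 differences were below 0, with a median of −0.24 against −0.01 over all tested probe sets, of which 48.2% were above 0. Spred1 held 7 of the 15. Its probe sets measure RNA of 1 gene and are not independent. No marker of the 8 cell type lists passed between the sexes. Of the 7 below 0 among the 8 Spred1 probe sets, 1423162_s_at at −0.54 ± 0.149 (adjusted p = 0.0925), 1423161_s_at at −0.37 ± 0.104 (adjusted p = 0.0936) and 1452911_at at −0.35 ± 0.103 (adjusted p = 0.109) came nearest to the threshold. The remaining Spred1 probe set, 1443652_x_at, went the other way, at 0.05 to 0.14 over the 37 fits that left 1 array out.

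On 1423162_s_at the female arrays overlapped the males, but 16 of 17 lay below the male median. It read 10.73, 11.04, 11.08 and 11.26 on the 129 female vector arrays and 11.34, 12.14, 12.25, 12.25 and 12.85 on the 129 male vector arrays, with no overlap. In B6 the vector arrays read 11.20, 11.38, 11.69, 11.99 and 12.26 in females and 11.37, 11.68, 12.18, 12.21 and 12.22 in males, with much overlap. It passed in the arrays of 129 alone, at −0.84 (adjusted p = 0.0313). Of the 37 fits that left 1 array out it passed in 3. These were without 129 female Cdca7l 1(3), B6 male Cdca7l 4(3) or 129 male vector 3(3), at adjusted p = 0.0416, 0.0458 and 0.0470. The leading Spred1 probe set differed by −0.11 ± 0.094. The difference in sex effect between strains did not pass for 1423162_s_at (0.60 ± 0.299, adjusted p = 0.334).

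The other members differed less between the sexes, against their errors. Nf2 1421820_a_at differed by −0.33 ± 0.134 (adjusted p = 0.202) and Nf1 1438067_at by −0.21 ± 0.101 (adjusted p = 0.268). Rasa1 1426477_at differed by 0.16 ± 0.121, Tsc1 1455252_at by 0.16 ± 0.101, Tsc2 1452105_a_at by −0.14 ± 0.219 and Spred2 1434403_at by −0.24 ± 0.320. The array with a female label and male values counts as female in all of these. Without it and 129 female vector 1(3), Nf2 stood at −0.31, Spred2 at 0.03, and 0 of 21 members passed. Of all 25579 tested probe sets 260 then passed between the sexes, against 82 with all arrays.

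None of the measured brakes differed past the threshold between Cdca7l and vector arrays. Averaged over strains and sexes, 0 of 21 member probe sets passed, where 2 of all 25579 did, or 0.00782%, Cdca7l itself and Dnah11. At an unadjusted p under 0.05 there were 0 of 21 members and 324 of all. Within 129 females, 129 males, B6 females and B6 males, and in the tests of Cdca7l by strain and by sex, 0 of 25579 probe sets passed (0%). There, 0 of the 21 members reached an unadjusted p under 0.05 in each strain and sex, and 1 did in the test by strain.

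The intervals show what sizes the arrays can hold. For the averaged effect, Cdca7l minus vector, Nf1 1438067_at differed by 0.14 with a 95% interval of −0.07 to 0.34, and Rasa1 1426477_at by −0.14 with −0.38 to 0.11. Spred1 1460116_s_at differed by 0.10, with −0.09 to 0.29, and Nf2 1421820_a_at by 0.09, with −0.19 to 0.36. Tsc1 1455252_at differed by 0.01, within −0.20 to 0.22. Spred2 1434403_at had a wider interval, −0.49 to 0.81 around 0.16, and its sign turned, to −0.12, without 129 female vector 1(3).

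Tsc2 had the largest averaged difference of the leading probe sets, 0.39 ± 0.219 with an interval of −0.05 to 0.84 (unadjusted p = 0.0826, adjusted p = 0.999). In 129 females its vector arrays read 6.93, 6.99, 7.98 and 8.39 and its Cdca7l arrays 8.09, 8.23, 8.25 and 9.54, a difference of 0.95 ± 0.468 (unadjusted p = 0.0504) with 1 vector array inside the Cdca7l range. In 129 males the vector arrays read 7.84, 8.01, 8.01, 8.45 and 9.15 and the Cdca7l arrays 7.66, 8.04, 8.27, 8.43 and 8.98, and the difference was −0.02 ± 0.419. In the fits that left 1 array out, it ran from −0.03 to 0.52 in B6 females and from 0.06 to 0.60 in B6 males, and passed in none.

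**Figure D4:**
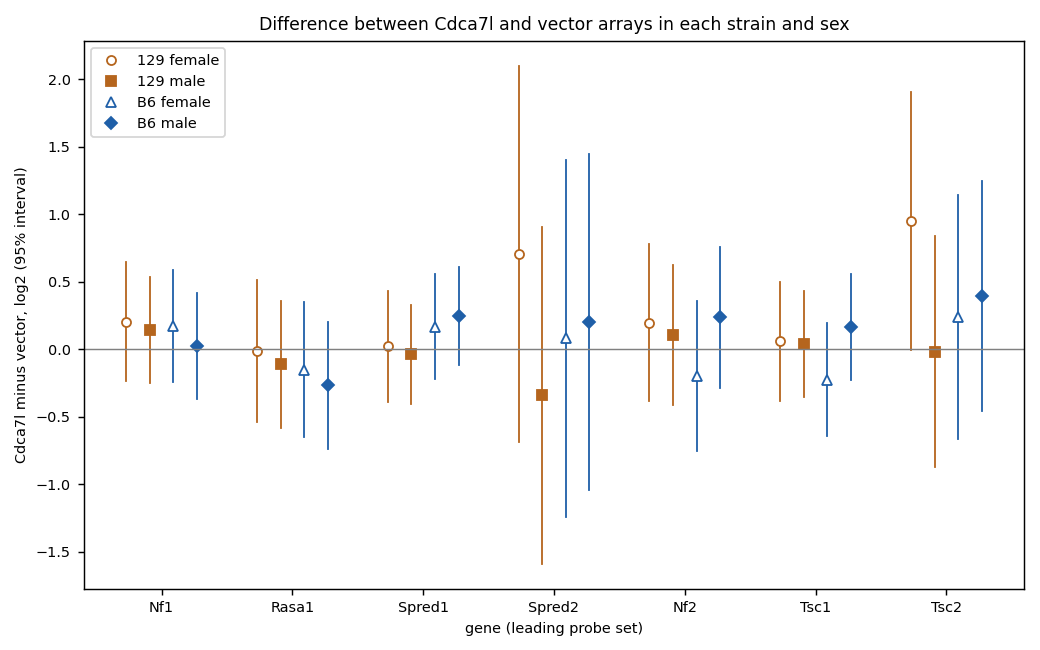
Cdca7l minus vector differences (log2) of the leading probe set of each measured gene, with 95% intervals, in each strain and sex. Every interval includes 0, and the Spred2 and Tsc2 intervals are the widest.

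The genes around the members were counted on 1 leading probe set per gene, from lists chosen by pathway. Over 10 lists, 104 of 122 genes were tested, and between strains 13 were higher and 10 lower in B6, or 22.1% of the tested genes. Over the leading probe sets of all 12139 genes the share was 26.9%, with 16.5% higher and 10.4% lower, so the lists moved no more often than genes at large. For sex and for the averaged Cdca7l effect, 0 of 104 passed, where the shares over all genes were 0.297% and 0.0165%.

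Among 7 tested RasGAP relatives of Nf1 and Rasa1, Dab2ip (0.33 ± 0.080) and Rasa3 (0.48 ± 0.144) were higher in B6 and Iqgap1, a scaffold with a RasGAP-related domain, was lower (−0.35 ± 0.093). Of the 5 tested Sprouty and SPRED relatives 0 passed, with Spred3 at −0.60 ± 0.251 (adjusted p = 0.0770). Of 13 Ras genes and exchange factors Mras was higher (0.80 ± 0.212) and Rasgrf1, a calcium-linked exchange factor, was lower. Rasgrf1 exceeded the background level on 15 of 18 arrays of 129 and 0 of 19 of B6, which makes it at least 3.21-fold lower. Its adjusted p was 6.55e-05 in the main fit and 0.000595 with low values raised to that level. Ksr1, the scaffold of the ERK cascade, was higher at 1.23 ± 0.291 and was 1 of 6 tested in its list.

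The targets of ERK went in both directions. Of 11 tested, Egr1 was higher in B6 (0.94 ± 0.337), and Phlda1 (−0.74 ± 0.190) and Fosl1 (−2.16 ± 0.715) were lower. The feedback phosphatase Dusp6 differed by −0.13 ± 0.209 and Spry2 by 0.01 ± 0.122, and neither passed.

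Around merlin, Wwc1 (0.31 ± 0.101) and the Hippo kinase gene Lats1 (0.41 ± 0.139) were higher in B6, and Stk4 (−0.21 ± 0.064), Fat4 (−0.79 ± 0.241) and Tead4 were lower, out of 20 tested. Tead4 lay mostly at background, above it on 6 of 18 arrays of 129 and 2 of 19 of B6, and its fitted difference of −1.01 was −0.77 with low values raised to that level. Of 7 YAP target genes, Ankrd1 was lower in B6, where it exceeded the background level on 0 of 19 arrays, against 10 of 18 in 129. The size is thus a bound of at least 6.56-fold. Its adjusted p was 0.00283 in the main fit and 0.00370 with low values raised to that level. The classical targets Ccn2 (−0.17 ± 0.082) and Ccn1 (0.14 ± 0.083) did not pass. Around TSC, Rps6 (0.97 ± 0.079), Sesn1 (0.66 ± 0.173) and Sesn3 (0.52 ± 0.161) were higher and Eif4ebp1, which restrains translation until mTORC1 phosphorylates it, was lower (−1.003 ± 0.316), out of 17 tested.

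Of 11 tested regulators of p53, Ppm1d (0.49 ± 0.142) and Hipk2 (0.31 ± 0.101) were higher in B6 and Usp7 was lower (−0.18 ± 0.067), while Mdm2, which marks p53 for destruction, differed by −0.06 ± 0.136. Of 12 other glioma suppressors, Pik3r1 was higher (0.53 ± 0.176). Cdkn2a, at −0.81 ± 0.481, and Rb1, at 0.25 ± 0.141, did not pass.

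**Figure D5:**
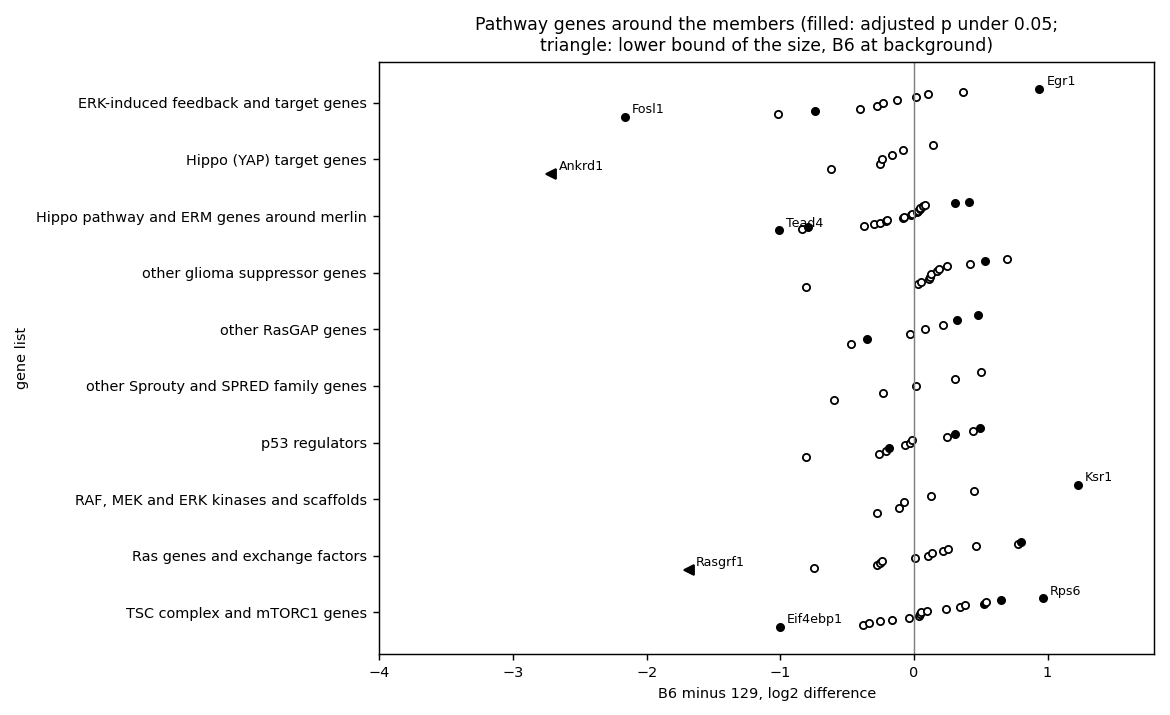
B6 minus 129 differences (log2) of the leading probe set of each tested gene in the 10 lists around the members, filled where the adjusted p was under 0.05. Triangles mark Ankrd1 and Rasgrf1, which exceeded the background level on no B6 array and are drawn at the smallest size that level allows. The filled points lie on both sides of 0, from Ksr1 at 1.23 to Fosl1 at −2.16 and the Ankrd1 bound.

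The genes whose values ran most like each member over the 37 arrays were found by Pearson's r, as a description over arrays that share strain, sex and culture. Nf1 ran most like Abca1 (r = 0.88) and Glis3 (r = 0.88), and Rasa1 like Plin2 (r = 0.88) and Acot9 (r = 0.83). Nf2 ran most like Wdr60 (r = 0.76) and Arcn1 (r = 0.75), which fell to 0.50 and 0.47 after group means were taken off. Spred2 ran most like Sgms2 (r = 0.92) and Kirrel (r = 0.91), which stood at 0.80 and 0.82 without the 2 arrays farthest from the median. Spred1 ran most like Ddx17 (r = 0.74), Tsc1 like Vps53 (r = 0.76) and Tsc2 like Uckl1 (r = 0.83). Among the members themselves the leading probe sets of Nf2 and Tsc2 correlated highest (r = 0.55) and those of Nf1 and Rasa1 lowest (r = −0.57).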

How the data were processed

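RNA of 37 primary astrocyte cultures was amplified from 10 ng and measured on 1 one-colour array each. The deposited values are log2 expression, made by the authors with GCRMA and Partek 6.5 per the submitters' processing notes; they were used as deposited. Precision is limited by the number of arrays, since log2 intensities hold no read depth. The sources used here do not say if all arrays shared 1 normalization.

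All 37 arrays entered 1 model in limma 3.58.1 (R 4.3.3), where the 8 groups had their own means, leaving 29 residual degrees of freedom. Adjusted p-values are from limma with empirical Bayes moderation and Benjamini-Hochberg adjustment over 25579 probe sets, in each of 10 comparisons. Left out were 64 control probe sets and 19458 that did not exceed the table median of 3.189 on at least 4 arrays. A fold given as "at least" sets the 129 mean against B6 values raised to that median. Strain is the mean of the B6 groups minus that of the 129 groups, and sex and Cdca7l likewise. Genes were named from the platform annotation (34958 probe sets with 1 symbol, 932 with several, 9211 with none), of which 34754 matched GRCm38.p6 by Entrez ID. Every probe set of a member is reported; listed genes were named up to 4 per list where they passed, by smallest p, and other genes were named after their values were seen. The members and lists were chosen with earlier results of these data known. The fit was tested on simulated data.

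Cultures are described as independent isolates, and p-values measure the spread between arrays within groups. Some clone labels recur on a Cdca7l and a vector array of 1 strain and sex. In B6, deviations from group means of such pairs correlated by 0.432 to 0.775 (females, 3 pairs) and 0.376 to 0.572 (males, 4 pairs). In 129, they correlated by 0.061 to 0.716 (females, 4 pairs) and −0.0887 to 0.623 (males, 4 pairs). The lowest were 2(3) in 129 females and 3(3) in 129 males, and the other 129 pairs lay at 0.416 to 0.716. Whether every shared label marks a pair in 129 is thus less clear. The main fit used no pairs. Blocks on the label, which covered both strains, were alternatives, beside the variance prior, filter, normalization, array weights, 1 probe set per gene and arrays left out.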

Additional observations from a re-analysis of the deposited data

Results flagged for a closer look

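In 21 of 168 combinations of a group of 4 or 5 arrays and a tested member probe set, 1 array lay far from the others of its group by Dixon's ratio. Chance flags about 1 in 20 such groups. Values are log2, with the range of the group's other arrays after each.

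Array 129 female vector 1(3) gave 3 of them: Spred2 1434403_at at 7.18 (11.54 to 11.81), Spred1 1428777_at at 7.27 (10.15 to 10.52) and Spred1 1460116_s_at at 12.71 (12.34 to 12.39). In the same group, Spred1 1452911_at lay at 11.20 on 4(1) (11.43 to 11.46). Among the 129 female Cdca7l arrays, 1(3) lay apart for Rasa1 1426477_at at 11.10 (11.59 to 11.64) and Tsc2 1452105_a_at at 9.54 (8.09 to 8.25). Among 129 males, vector 3(3) lay apart for Nf1 1438067_at at 7.82 (8.48 to 8.68) and Spred1 1445228_at at 3.66 (7.17 to 8.001). Cdca7l arrays of 129 males lay apart for Nf1 1438067_at at 8.40 on 3(1) (8.59 to 8.66), Spred1 1445228_at at 8.40 on 5(1) (6.98 to 7.17) and Spred1 1460116_s_at at 12.29 on 3(2) (12.65 to 12.78).

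Of the B6 female vector arrays, 5.1(1) lay apart for Tsc1 1439989_at at 4.90 (2.18 to 2.27) and 2.1(1) for Nf1 1438067_at at 7.86 (8.43 to 8.66). Among B6 female Cdca7l arrays, 4(5) lay apart for Spred2 1434403_at at 10.75 (11.47 to 11.54) and Tsc1 1439989_at at 2.72 (2.15 to 2.23), and 6(3) for Spred2 1441415_at at 3.26 (2.29 to 2.31). The latter values of both dim probe sets lie around the background level. Among B6 male Cdca7l arrays, 4(3) lay apart for Rasa1 1426476_at at 11.62 (10.15 to 10.52) and Spred2 1436892_at at 7.84 (10.05 to 10.80), and 3(5) for Spred1 1460116_s_at at 12.17 (12.73 to 12.89). Among B6 male vector arrays, 4(3) lay apart for Rasa1 1426477_at at 11.76 (10.55 to 10.79) and 3(5) for Tsc2 1452105_a_at at 7.14 (8.52 to 9.06).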

How the results depend on the processing

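The strain count of 4 member probe sets became 7 with equal array medians, 11 with array weights (whose estimation stopped before it converged), 2 of 7 tested with 1 probe set per gene, 7 without both arrays that stood apart, 1 in females alone, 1 in vector arrays alone and 2 in Cdca7l arrays alone. It was 3 to 6 under the other settings and 4 to 7 with each array left out, 7 without 129 female vector 1(3). The 4 called probe sets passed with each of the 37 arrays left out. In females alone Spred1 1445228_at turned to 0.043 from −1.46. The sex count of 0 became 9 with array weights, where 6437 of all 25579 probe sets passed, and 3 in 129 alone, where 1135 did. It was 0 to 2 with each array left out. The strain by sex count of 0 became 2 with array weights, where 6227 of all passed, and was 0 to 1 with each array left out. Every Cdca7l count stayed at 0 under each setting run. With a random replicate block on the clone label (correlation 0.409) the same 4 strain calls passed (highest adjusted p = 0.0256), and with a random or a fixed replicate block the Cdca7l counts stayed at 0, so the pairing changed no call of a member. Over the whole table the strain count of 6456 was 12132 with array weights, 4249 with the random replicate block, 2899 in males, 1702 in females, 2222 in vector arrays and 1333 in Cdca7l arrays. It split as 3743 higher and 2713 lower in B6, but as 2776 and 3868 with equal array medians, where the median difference was −0.0969 against −0.00472. Fewer arrays entered the subset fits; otherwise the cause was not tested.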
